A study of Mus musculus with 138 samples.

Results

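The genes described here are 10 regulators of stored maternal mRNA: Zar1, Zar1l, Ybx2, Patl2, Lsm14b, Ddx6, Eif4enif1, Eif4e1b, Cpeb1 and Dazl. They were chosen by name as RNA-binding and cap-binding proteins of oocyte mRNA storage, with earlier results of these data known. All 10 were present among the 25900 genes counted. Polyadenylated RNA of 2-cell mouse embryos was sequenced, with 1 library per plate well, as the RNA arm of scNMT-seq, a joint assay of transcripts, methylated DNA and open chromatin. The study asked what becomes of the embryo's transcripts when SMARCA5, a nucleosome-sliding ATPase, is removed before or after fertilization. Libraries called maternal deletion carry the genotype label Smarca5 +/- (28 kept) and came from mothers whose egg lacked Smarca5, crossed with wild-type males. Libraries called wild type carry the label Smarca5 +/+ (22 kept), but the titles of both groups name matKO females, so the titles do not tell the mothers apart. The driver of the deletion, the strain and the age of the females are not given in the sources used here. The other libraries came from wild-type embryos of a TrimAway experiment, in which TRIM21 marks a protein bound by an injected antibody for destruction in the zygote. Embryos with the antibody to SMARCA5 (31 kept) and embryos with IgG (20 kept) were collected at least 24 hours after injection, and uninjected embryos (15 kept) were the other control.

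A growing oocyte makes far more mRNA than it translates, and keeps the rest silent until meiosis resumes or the egg is fertilized. The silent mRNAs sit in ribonucleoprotein particles with proteins that bind their ends, block the cap-binding complex or keep the poly(A) tail short. In the mouse most maternal mRNA is then destroyed by the end of the 2-cell stage, as the embryo's own genome is activated. Transcripts of the storage machinery can themselves be maternal mRNAs, and their origin was not measured here.

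Zar1 and Lsm14b gave the highest log2 fold changes of the storage genes tested in the maternal deletion, and Zar1l, the relative of Zar1, lay lower in those libraries. The 250 bases before the start of these 3 genes are therefore shown, from RefSeq on GRCm38.p6, 5′ to 3′ on the strand of the gene. Zar1 is on the minus strand at chr5:72581085-72581334, Lsm14b on the plus strand at chr2:180024737-180024986 and Zar1l on the minus strand at chr5:150518160-150518409. Capitals mark E-boxes (CANNTG, the letters bound by basic helix-loop-helix factors such as the oocyte factor FIGLA), the letters TATTTAA and the letters TAATTG of the NOBOX element, each searched on both strands.
Zar1: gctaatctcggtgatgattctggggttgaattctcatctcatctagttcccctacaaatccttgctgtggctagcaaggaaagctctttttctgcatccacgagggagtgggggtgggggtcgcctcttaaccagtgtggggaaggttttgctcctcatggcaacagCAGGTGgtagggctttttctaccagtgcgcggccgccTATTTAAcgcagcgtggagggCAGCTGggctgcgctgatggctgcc
Lsm14b: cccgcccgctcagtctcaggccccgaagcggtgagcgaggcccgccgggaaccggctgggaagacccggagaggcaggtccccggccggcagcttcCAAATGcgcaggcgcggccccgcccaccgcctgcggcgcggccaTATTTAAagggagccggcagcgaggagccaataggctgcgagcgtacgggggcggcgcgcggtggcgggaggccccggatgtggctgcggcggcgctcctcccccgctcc
Zar1l: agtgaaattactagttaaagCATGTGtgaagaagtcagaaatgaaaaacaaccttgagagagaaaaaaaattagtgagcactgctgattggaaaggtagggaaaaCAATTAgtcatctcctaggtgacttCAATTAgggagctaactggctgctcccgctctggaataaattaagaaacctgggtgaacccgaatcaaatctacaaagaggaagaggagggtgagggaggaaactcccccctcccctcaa

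RefSeq promoters were matched by symbol for 8 of the 10 genes, all but Eif4e1b and Ddx6. The 8 genes have 12 such windows, since some have several starts. An E-box stood in 8 of the 12, 1 for each gene, against 66.2% of 32851 mouse promoters of the same length, so its presence is common. The letters TATTTAA, picked after the sequences had been seen, stood 46 bases before the start of Zar1 and 110 bases before that of Lsm14b, and in 4.18% of all promoters. The letters TAATTG stood in the window of Zar1l alone among the 8 genes, in 2 places, and in 7.17% of all promoters. In the printed windows no marked matches overlapped. These matches describe letters, and no binding was measured.

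Totals of kept libraries ran from 109007 to 12004992 counts, and the median was 545264 in wild type and 1618485 in maternal deletion. Levels are CPM, counts scaled to a common library total, after TMM scaling, which sets a gene against the rest of the library, so that more of its RNA and less of the other RNA cannot be told apart. Smarca5 RNA ran from 151 to 810 CPM in wild type and from 3.04 to 341 CPM in maternal deletion, and fell by 2.06 on the log2 scale (SE 0.306, edgeR adjusted p = 2.63e-07). Gdf9, an oocyte growth factor gene, ran from 0 to 653 CPM in wild type and from 18.7 to 27180 CPM in maternal deletion. In replicate 2, 3 wells stood apart from their groups. Well A04 of the maternal deletion held 266 CPM of Smarca5 and 18.7 CPM of Gdf9, where the other 27 libraries held at least 1139 CPM of Gdf9. Wells G05 and H05 of the wild type held 160 and 151 CPM of Smarca5, below the other 20 libraries (from 181 CPM), and 653 and 253 CPM of Gdf9, above them (up to 243 CPM) but below every deletion library except A04. Well H09 of the maternal deletion, in replicate 1, held the most Smarca5 of that group (341 CPM) and the least Gdf9 (1139 CPM), Zar1 (138 CPM) and Lsm14b (172 CPM) of its replicate, and was kept throughout. The labels call the replicates technical, each of embryos from several matings or injections, so p-values measure the spread between these libraries. Each result on the deletion is also given without the 3 wells A04, G05 and H05 where that changed it. Trim21 RNA stood at 0 in all 10 IgG libraries of replicate 1, had a median of 320.3 CPM in the 10 of replicate 3 and was above 0 in 30 of 31 anti-SMARCA5 libraries. IgG of replicate 1 therefore differed from the antibody group in this RNA as well. Wells without an embryo held 453 to 1875 counts, with 1 count of a storage gene in all.

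In embryos of the maternal deletion, 6 of the 8 storage genes tested were higher than in wild type (edgeR quasi-likelihood test, Benjamini-Hochberg adjusted p under 0.05) and none was lower. Of all 8518 genes tested, 56.6% passed in either direction and 30.3% passed as higher. The median log2 fold change of the 8 genes was 1.55, against 0.18 for all genes tested. Since the genes were chosen with earlier results of these data known, these values describe the set and do not test it. Zar1l and Patl2 were not among the 8, and with no filter on low counts 7 of all 10 were called higher and 1 lower, where 49.6% of all genes were called. Zar1 and Ybx2 each held more than 3 counts in 27 of 28 deletion libraries, but in 9 and 8 of 22 wild-type libraries. They therefore passed the filter through the deletion, while Zar1l, which lay lower there, did not pass. The count of 6 higher and none lower thus depends in part on the filter. Without replicate 2, 3 of 7 were called (Zar1, Lsm14b and Eif4e1b), which is near the 43.8% of all genes called there. The share of a library's counts taken by the 10 genes together had a median of 0.241% in maternal deletion and 0.0961% in wild type. It was 0.0848% in uninjected, 0.0736% in IgG and 0.0814% in anti-SMARCA5 libraries.

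**Figure D1:**
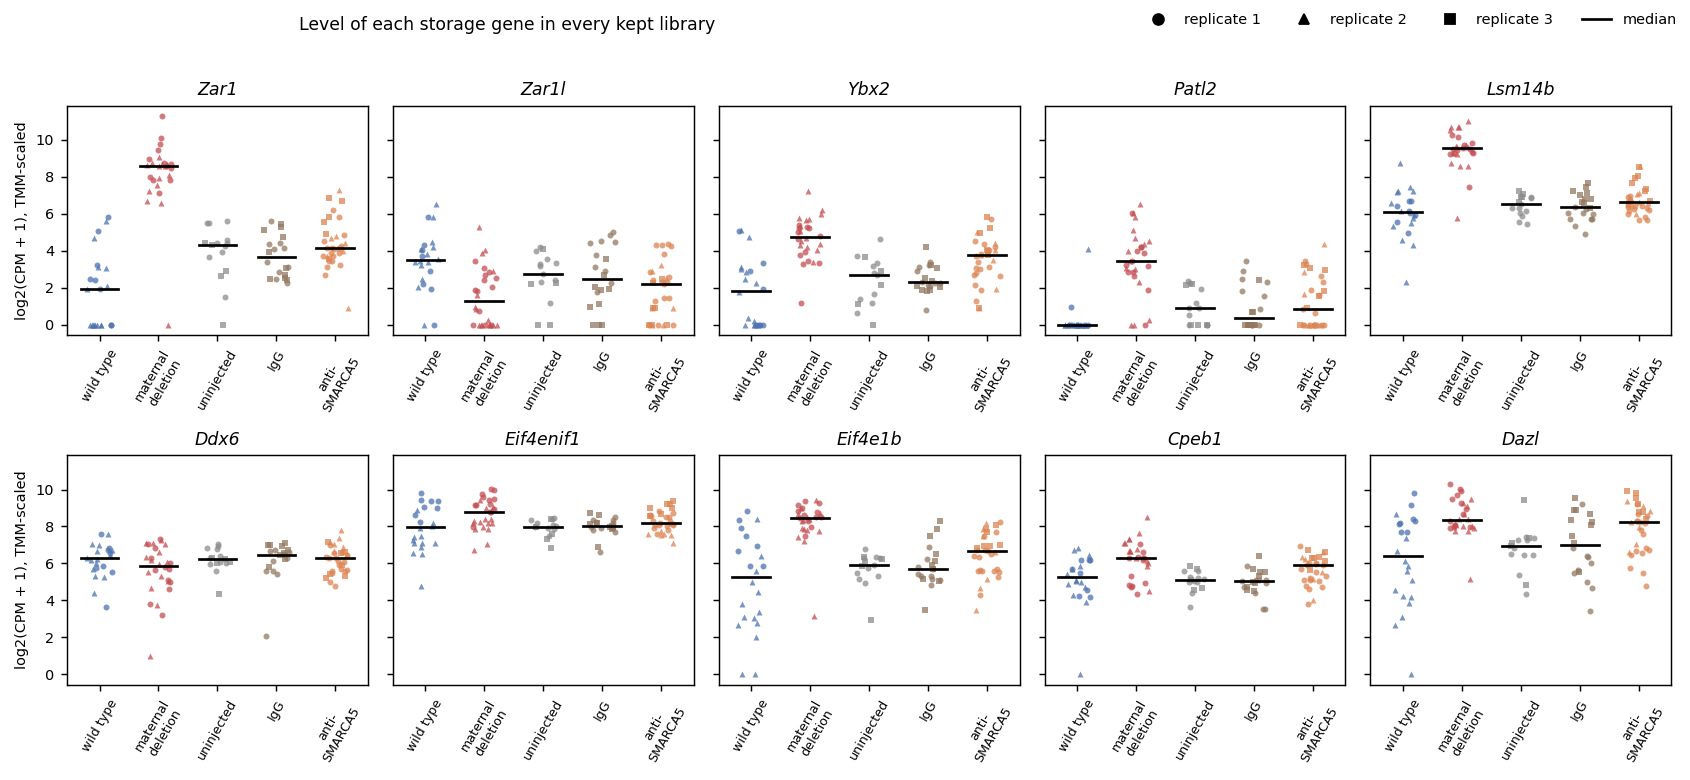
TMM-scaled level of each storage gene as log2(CPM + 1) in every kept library, by group (1 point per library, point shape for the replicate number, bar for the median). Zar1 and Lsm14b stand highest in maternal deletion. For Zar1, 1 library of that group (well A04) lies among the wild-type values. For Lsm14b, 23 of the 28 lie above every wild-type library. In the 3 TrimAway groups the highest Zar1 value is 152 CPM.

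Zar1 (ENSMUSG00000063935, chromosome 5, positions 72577114 to 72581084, minus strand) encodes a zygote arrest protein that binds the 3′ ends of maternal mRNAs and is needed to store them beside the mitochondria of the oocyte. In the 22 wild-type libraries the lowest, median and highest levels were 0, 2.76 and 56.5 CPM. In the 28 maternal deletion libraries they were 0, 382 and 2490 CPM. The value of 0 belonged to well A04, and the other 27 libraries, from 96.1 CPM upwards, all lay above the highest wild-type library. In wild type 10 libraries held no count of Zar1 and 13 held at most 3. Its log2 fold change was 5.63 (SE 0.657, edgeR adjusted p = 1.02e-09), and 6.36 without the 3 wells. Zar1 entered that fit through the deletion libraries, and with no filter the value was 5.48 (adjusted p = 1.96e-08). The rise was of like size in replicate 1 alone (5.77) and in replicate 2 alone (5.21).

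Zar1l (ENSMUSG00000056586, chromosome 5, positions 150507055 to 150518164, minus strand) encodes the closest relative of ZAR1. Its levels ran the other way: the lowest, median and highest were 0, 10.3 and 91.8 CPM in wild type and 0, 1.51 and 38.4 CPM in maternal deletion. In wild type 20 of 22 libraries lay above the median of the deletion, although the groups overlapped. Zar1l did not pass the filter on low counts. In a fit with no filter its log2 fold change was -2.12 (edgeR adjusted p = 0.0081), and with libraries of at least 500000 counts it was -1.80 (adjusted p = 0.0745).

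Ybx2 (ENSMUSG00000018554, chromosome 11, positions 69935796 to 69941605, plus strand) encodes a germ-cell Y-box protein that coats and stabilizes stored mRNA. Wild-type libraries had a lowest, a median and a highest level of 0, 2.59 and 33.9 CPM. They were 1.26, 25.5 and 149 CPM in maternal deletion, where 27 of 28 libraries lay above the wild-type median and 11 above every wild-type library. Ybx2 rose by 2.25 on the log2 scale (SE 0.522, edgeR adjusted p = 3.11e-04), in a fit that it entered through the deletion libraries. With no filter the value was 2.09 (adjusted p = 0.00148). In replicate 2 alone it was 2.65 (adjusted p = 0.00426), and in replicate 1 alone Ybx2 was under the filter and not tested.

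Patl2 (ENSMUSG00000027233, chromosome 2, positions 122120108 to 122186189, minus strand) encodes an oocyte member of the family of mRNA decay and repression factors named after yeast Pat1. Wild-type libraries held between 0 and 3 counts of it, and 20 of the 22 held none. In maternal deletion its lowest, median and highest levels were 0, 10.02 and 91.4 CPM, and 22 of 28 libraries held more than 3 counts. Summed over libraries, Patl2 had 4 counts in wild type, or 0.0763 CPM (exact 95% Poisson interval 0.0208 to 0.195), and 1721 in maternal deletion, or 21.4 CPM (20.4 to 22.5). These intervals cover counting error only. Patl2 missed the filter in the comparison of these groups, and with no filter it gave an adjusted p of 6.15e-06 in edgeR. The span of the gene overlaps Trim69 and B2m on the other strand and shares no exon base with either. B2m had medians of 38.3 CPM in wild type and 69.3 CPM in maternal deletion, with Trim69 at a median of 0 in both, and their part in the counts of Patl2 was not tested.

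Lsm14b (ENSMUSG00000039108, chromosome 2, positions 180024987 to 180035465, plus strand) encodes an Sm-like protein of repressed mRNA particles in oocytes. Wild-type levels had a minimum of 3.91, a median of 67.2 and a maximum of 432.0 CPM. They were 54.1, 749 and 2069 CPM in maternal deletion, where 23 of 28 libraries lay above every wild-type library. The lowest of them was well A04. Lsm14b rose by 3.05 on the log2 scale (SE 0.335, edgeR adjusted p = 2.37e-10), by 3.40 in replicate 1 and by 3.03 in replicate 2.

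Ddx6 (ENSMUSG00000032097, chromosome 9, positions 44604892 to 44640731, plus strand) encodes the RNA helicase that holds silenced mRNAs together with LSM14 and 4E-T proteins, in most cell types. Minimum, median and maximum were 11.3, 76.4 and 194 CPM in wild type and 0.967, 57.6 and 162 CPM in maternal deletion, and the groups overlapped widely. Its log2 fold change was -0.46 (SE 0.319, edgeR adjusted p = 0.215). With scaling by total counts, which moved the median of all genes from 0.18 to -0.04, Ddx6 passed as lower (-0.73, adjusted p = 0.0416), so its call depends on the scaling.

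Eif4enif1 (ENSMUSG00000020454, chromosome 11, positions 3202392 to 3244588, plus strand) encodes 4E-T, which binds the cap-binding factor eIF4E and keeps mRNAs out of translation. Across libraries the minimum, median and maximum were 26.8, 249 and 896 CPM in wild type and 106, 433 and 1041 CPM in maternal deletion. Its log2 fold change of 0.47 (SE 0.275) did not pass (edgeR adjusted p = 0.134). The wild-type median was 599 CPM in replicate 1 and 148 CPM in replicate 2, and that of the maternal deletion 595 and 289 CPM. The log2 fold change was 0.15 in replicate 1 alone (adjusted p = 0.626) and 0.70 in replicate 2 alone (adjusted p = 0.0702). The gene's span overlaps Drg1 on the other strand with no shared exon base. Drg1 fell by 1.98 on the log2 scale (adjusted p = 6.85e-04), with medians of 122 CPM in wild type and 18.7 CPM in maternal deletion.

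Eif4e1b (ENSMUSG00000074895, chromosome 13, positions 54783998 to 54788459, plus strand) encodes a cap-binding protein of the eIF4E family that is restricted to oocytes and early embryos. Its lowest, median and highest levels were 0, 38.8 and 455 CPM in wild type and 8.01, 357 and 686 CPM in maternal deletion. In maternal deletion 27 of 28 libraries lay above the wild-type median, but 7 lay above every wild-type library. The wild-type collections stood apart: the median was 149 CPM in the 8 libraries of replicate 1 and 8.50 CPM in the 14 of replicate 2. Eif4e1b rose by 1.87 on the log2 scale (SE 0.459, edgeR adjusted p = 5.89e-04), by 1.14 in replicate 1 and by 2.79 in replicate 2.

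Cpeb1 (ENSMUSG00000025586, chromosome 7, positions 81347026 to 81455465, minus strand) encodes the protein that binds the cytoplasmic polyadenylation element, silencing an mRNA first and lengthening its tail later. Its lowest, median and highest levels were 0, 37.7 and 114 CPM in wild type and 19.6, 77.8 and 362 CPM in maternal deletion. Cpeb1 rose by 0.95 on the log2 scale (SE 0.330, edgeR adjusted p = 0.0129). This call was lost in 3 settings: with scaling by total counts (0.69, adjusted p = 0.0745), with all libraries that held any count (0.71, adjusted p = 0.0595) and in replicate 1 alone (0.40, adjusted p = 0.446).

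Dazl (ENSMUSG00000010592, chromosome 17, positions 50279394 to 50293599, minus strand) encodes a germ-cell protein that recruits mRNAs to translation during oocyte maturation. Its lowest, median and highest levels were 0, 85.4 and 911 CPM in wild type and 35.2, 322 and 1274 CPM in maternal deletion. The wild-type median was 299 CPM in replicate 1 and 27.8 CPM in replicate 2, while that of the maternal deletion was 498 CPM in replicate 1 and 271 CPM in replicate 2. Dazl rose by 1.23 on the log2 scale (SE 0.425, edgeR adjusted p = 0.0123). In replicate 1 alone the log2 fold change was 0.60 (adjusted p = 0.136) and in replicate 2 alone it was 2.11 (adjusted p = 0.00351). The call was also lost with libraries of at least 500000 counts (1.25, adjusted p = 0.0518).

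**Figure D2:**
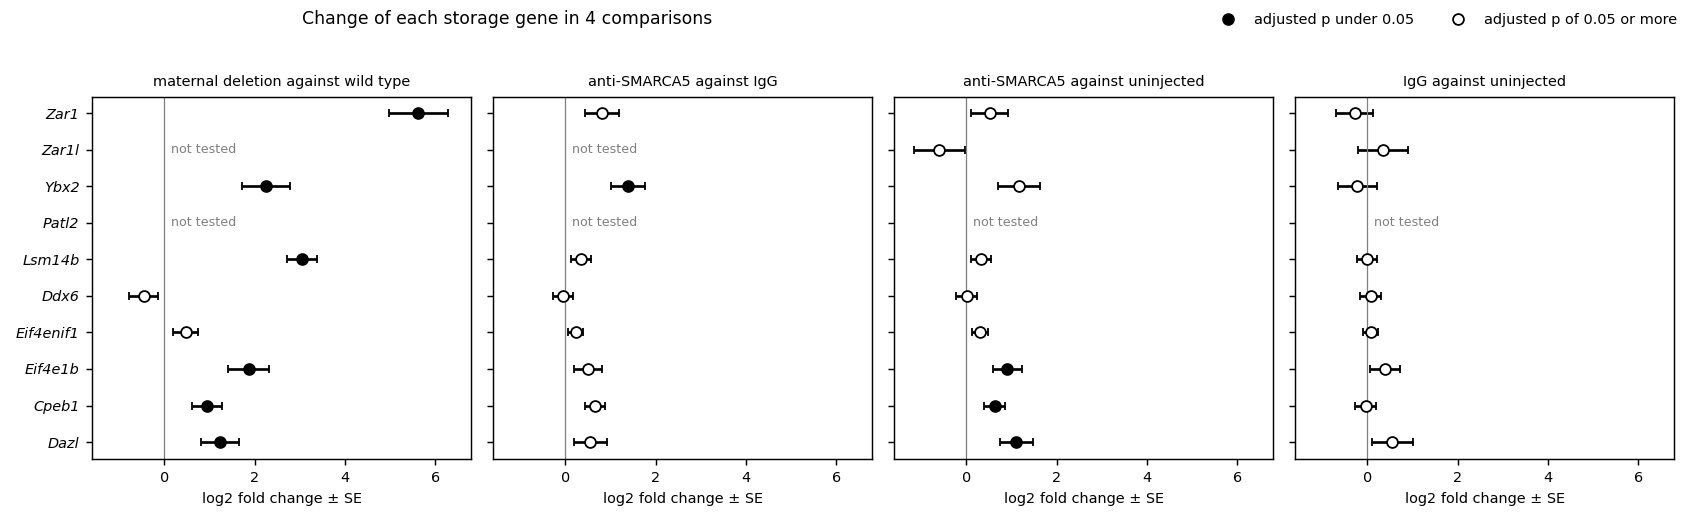
Log2 fold change with its standard error for each storage gene in the comparisons of groups (filled points have an adjusted p under 0.05, and genes under the filter on low counts are marked as not tested). Zar1 (5.63) and Lsm14b (3.05) lead in the maternal deletion, while the highest value for anti-SMARCA5 against IgG is 1.39, for Ybx2.

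The effect of the deletion was compared between replicates, which are also different sequencing lanes and cannot be told apart from them. None of 8 storage genes differed (edgeR interaction test), where 0.763% of all genes did, and none had an unadjusted p under 0.05. Without the 3 wells the rise of Eif4e1b was smaller in replicate 1 than in replicate 2, by a log2 difference of -3.12 (edgeR adjusted p = 3.08e-04), and no other storage gene passed. That is 1 of 8, where 12.6% of all genes differed in that fit.

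Embryos given antibody against SMARCA5 were compared with those given IgG. Against IgG, 1 of 8 storage genes tested passed, Ybx2, where 3.03% of all 10447 genes did. The lowest, median and highest levels of Ybx2 were 0.746, 3.86 and 17.4 CPM in IgG. They were 0.834, 12.4 and 56.0 CPM in anti-SMARCA5, where 25 of 31 libraries lay above the IgG median and the groups still overlapped. Ybx2 rose by 1.39 on the log2 scale (SE 0.370, edgeR adjusted p = 0.0334), and the call was lost with scaling by total counts (1.09, adjusted p = 0.111), without replicate 1 (1.69, adjusted p = 0.387) and without replicate 3 (1.17, adjusted p = 0.138). Without replicate 1, edgeR called 0 of 9402 genes, 1210 of which had an unadjusted p under 0.05, so the lost call there is not particular to Ybx2. Without replicate 3, 3.78% of all genes were called. The other storage genes stood at -0.06 (Ddx6), 0.23 (Eif4enif1), 0.34 (Lsm14b), 0.50 (Eif4e1b), 0.55 (Dazl), 0.66 (Cpeb1) and 0.81 (Zar1).

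With the replicate number as a block, 4 of the 8 genes passed as higher in anti-SMARCA5 than in IgG, where 25.8% of all genes passed. They were Ybx2 (1.45, adjusted p = 0.00736), Cpeb1 (0.71, adjusted p = 0.018), Eif4enif1 (0.41, adjusted p = 0.0314) and Lsm14b (0.48, adjusted p = 0.0371), all from edgeR. The 7 anti-SMARCA5 libraries of replicate 2 have no kept IgG counterpart. With the block and scaling by total counts together, Ybx2 alone passed, where 16.4% of all genes did. Of all genes called against IgG, 57.1% were higher with TMM scaling and 26.6% with total counts.

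Zar1 did not pass in any comparison of the TrimAway groups. Its lowest, median and highest levels were 3.73, 11.97 and 47.6 CPM in IgG, 0.862, 16.9 and 152 CPM in anti-SMARCA5 and 0, 18.9 and 47.1 CPM in uninjected libraries. Every one of these libraries held less Zar1 than the median of the maternal deletion. Lsm14b had medians of 80.7 CPM in IgG, 96.7 CPM in anti-SMARCA5 and 92.6 CPM in uninjected libraries, with highest values of 199, 376 and 147 CPM. Patl2 had medians under 1 CPM in all 3 groups. Zar1l had medians of 4.55, 3.53 and 5.73 CPM in the same order.

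Against uninjected embryos, 3 of 9 storage genes tested were higher in anti-SMARCA5, where 27.9% of all 10750 genes passed. Dazl rose by 1.11 (adjusted p = 0.0237), Eif4e1b by 0.90 (adjusted p = 0.0311) and Cpeb1 by 0.63 (adjusted p = 0.0397) on the log2 scale in edgeR. Dazl had medians of 300.2 CPM in anti-SMARCA5 and 124 CPM in uninjected libraries, and Cpeb1 of 58.4 and 33.2 CPM. With scaling by total counts none of the 9 passed, where 21.2% of all genes did and 1 of the 9 had an unadjusted p under 0.05, with a median log2 fold change over all genes of -0.29 against 0.13 with TMM, and 17.9% of the genes called were higher against 62.9%. With the replicate block, where 31.9% of all genes passed, Dazl and Eif4e1b passed again, Cpeb1 did not (adjusted p = 0.0564) and Eif4enif1 did (0.42, adjusted p = 0.0352). Without replicate 1, edgeR called 1 of all 10544 genes and none of the storage genes, with 2261 genes at an unadjusted p under 0.05. Without replicate 3 Dazl alone of the storage genes passed (1.16, adjusted p = 0.0356), where 18.0% of all genes did.

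Between IgG and uninjected libraries, none of 9 storage genes passed, and 0% of the 9915 genes tested did in edgeR. At an unadjusted p under 0.05 there were 1440 genes and none of the 9, and DESeq2 called 206 genes and again none of the 9. The comparisons with anti-SMARCA5 and this one share libraries, so their values are given side by side only. The effect of anti-SMARCA5 against IgG was not shown to differ between replicates 1 and 3 for any of 8 storage genes, where 0.366% of all 10100 genes differed. Eif4enif1 had an unadjusted p of 0.0238 there.

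The difference between the effect of the deletion and that of anti-SMARCA5 against IgG was tested in 1 fit over the 4 groups. It passed for 3 of 10 storage genes, where 19.2% of all 12035 genes passed. Zar1 differed by 4.70 (SE 0.672, edgeR adjusted p = 1.08e-07) and Lsm14b by 2.67 (SE 0.373, adjusted p = 5.65e-08) on the log2 scale, each higher in the deletion. The third was Patl2, which was under the filter in both separate comparisons and is high in the maternal deletion alone of the 4 groups, so that its value of 5.32 is given as a description and its call supports nothing here. Without replicate 1, where 9.13% of all genes passed, Zar1 and Lsm14b did and Patl2 did not (3.56, adjusted p = 0.187). Eif4e1b differed by 1.27 (adjusted p = 0.0827), and passed without the 3 wells (1.67, adjusted p = 0.0165), where 28.6% of all genes did. The differences for Cpeb1 (0.24), Dazl (0.57) and Eif4enif1 (0.14) did not pass. For Ybx2 the difference was 0.74 (adjusted p = 0.406), so its rises in the 2 experiments were not shown to differ.

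**Figure D3:**
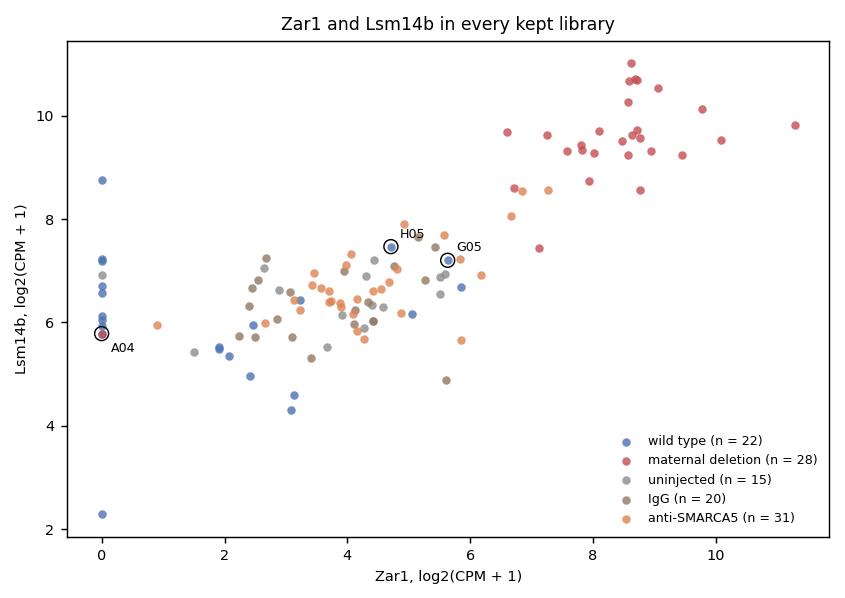
Zar1 against Lsm14b as log2(CPM + 1) in every kept library, coloured by group, with the 3 wells that stood apart circled. Maternal deletion libraries lie towards the upper right of the plot, apart from well A04, which lies at 0 for Zar1 among wild-type libraries. Well H09 of that group (138 CPM of Zar1 and 172 CPM of Lsm14b) lies below an anti-SMARCA5 library (152 and 376 CPM) in both genes.

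Per kilobase of exon (GENCODE M21), the order of the genes differed between wild type and maternal deletion. In wild type Eif4enif1 led with a median of 39.1 CPM per kb, followed by Lsm14b (23.2), Dazl (22.4), Eif4e1b (17.2) and Zar1l (11.5). The ranges between quartiles overlapped for each of these neighbours. Ddx6 (9.50), Cpeb1 (8.99), Ybx2 (1.38), Zar1 (0.796) and Patl2 (0) closed the order. This order pools 2 unlike wild-type collections. Eif4enif1 led in both, with 94.0 CPM per kb in replicate 1 and 23.2 in replicate 2. Dazl (78.3) and Eif4e1b (65.9) came next in replicate 1, above Lsm14b (23.5). In replicate 2 Lsm14b (22.3) and Zar1l (11.5) stood above Dazl (7.28) and Eif4e1b (3.77). In maternal deletion Lsm14b led with 259 CPM per kb (quartiles 213 and 331), above Eif4e1b (158.5, quartiles 106 and 197), and these quartile ranges did not overlap. Zar1 (110.4), Dazl (84.3) and Eif4enif1 (68.0) followed, and Zar1l (1.69) came last. The uninjected and IgG libraries gave the same order as each other, from Eif4enif1 (39.3 and 40.4 CPM per kb) to Patl2 (0.343 and 0.122). In anti-SMARCA5 libraries Dazl led with 78.6 CPM per kb (quartiles 28.7 and 117). This range overlapped that of Eif4enif1, which came next (45.3, quartiles 37.0 and 63.4).

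Within groups and replicates, the storage genes varied together only in part. Over 116 libraries, 36 of 45 pairs had a Pearson r above 0 on deviations of log2(CPM + 1) from the mean of group and replicate, with a median of 0.15. Eif4e1b and Dazl had the highest r (0.57), then Eif4e1b and Lsm14b (0.55) and Eif4e1b and Zar1 (0.50). Without the 3 wells these values were 0.49, 0.42 and 0.26, and that of Zar1 and Lsm14b was 0.20 (0.42 with them), so the pairs of Zar1 rest in part on those wells. Zar1l had an r of -0.09 with Zar1 and of -0.18 with Ybx2. The libraries share depth and scaling, and the r of a gene with the log2 total of its library ran from -0.05 (Lsm14b) to 0.28 (Ddx6).

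**Figure D4:**
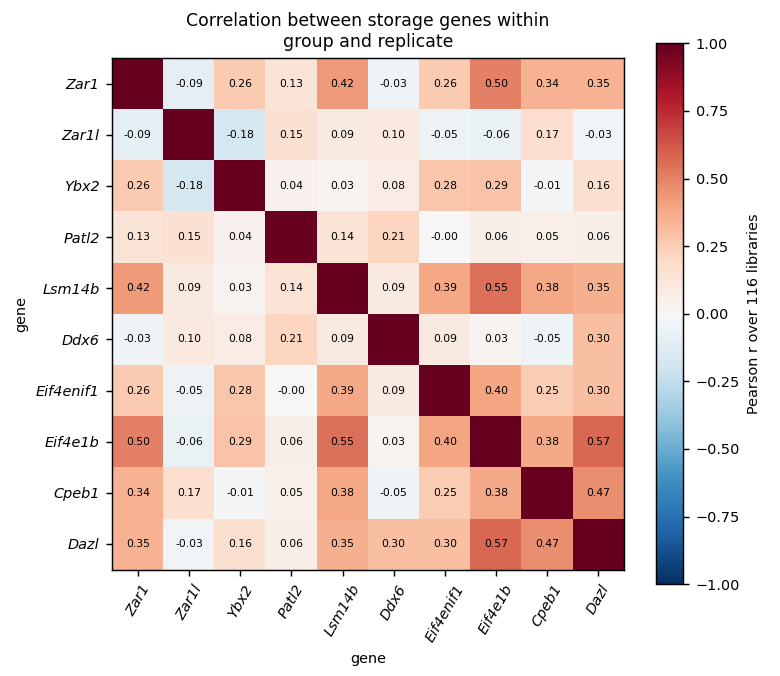
Pearson r between each pair of storage genes over 116 libraries, on deviations from the mean of group and replicate. The highest values join Eif4e1b with Dazl (0.57), Lsm14b (0.55) and Zar1 (0.50, and 0.26 without the 3 wells), and no value of Zar1l is above 0.17.

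The genes whose variation was most like the mean of the 10 were Gyg (r = 0.77), Deptor (0.73), C230081A13Rik (0.73), Laptm4b (0.73) and Dusp7 (0.73), of 8033 genes compared over the 116 libraries. The genes most like Zar1 were Blcap (0.70), Gdf9 (0.69), Rab3d (0.67), Tm7sf3 (0.64) and Plat (0.63). Without the 3 wells 4 of the first 5 and 2 of the second 5 were again among the nearest, and the r of Gdf9 with Zar1 was 0.48.

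Factors that act on or bind poly(A) tails, nuclear ones among them, changed in both directions in the maternal deletion. Of 19 tested, 4 rose and 4 fell, with a median log2 fold change of 0.04. Among all genes 30.3% rose and 26.4% fell, so neither count was above the share of all genes. Pabpc1l, the embryonic poly(A)-binding protein, rose from 4.19 ± 10.6 CPM (SD, n = 22) to 26.7 ± 22.5 CPM (SD, n = 28), by 2.54 on the log2 scale (edgeR adjusted p = 0.00207). Papd7, a non-canonical poly(A) polymerase, rose by 1.14 and Cpeb3, a paralogue of Cpeb1, by 1.003. Pabpc1, the somatic cytoplasmic poly(A)-binding protein, fell by 2.099 on the log2 scale, from 223 ± 120 to 55.0 ± 70.8 CPM. Pabpn1, its nuclear counterpart, fell by 2.20 and Cpsf4, a cleavage and polyadenylation factor, by 1.98.

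A list of cap-binding and initiation genes also held repressive relatives and a helicase of the exon junction complex. Of 13 tested, 7 fell and 1 rose in the maternal deletion, with a median of -0.75, where 26.4% of all genes fell and 30.3% rose. With the replicate block 6 fell and 1 rose. Eif4h, a cofactor of the initiation helicase, fell by 3.33 on the log2 scale, Eif4a3, a helicase of the exon junction complex, by 2.8 (edgeR adjusted p = 3.74e-08) and Eif4e2, a repressive cap-binding relative, by 2.37. Eif4a3 stood at 195 ± 66.1 CPM in wild type and at 29.7 ± 31.9 CPM in maternal deletion (SD). The gene that rose was Eif4e3, another cap-binding relative (1.09, adjusted p = 0.00137).

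Among other RNA-binding repressors and paralogues of the storage genes, 9 of 25 tested rose and 4 fell in the maternal deletion. The former is near the 30.3% of all genes that rose and the latter under the 26.4% that fell. Their median of 0.13 was under that of all genes (0.18). Nanos1, a germ-cell repressor, rose from 49.8 ± 70.6 to 323 ± 198 CPM (SD), by 2.60 on the log2 scale (edgeR adjusted p = 1.86e-07). Stau2, a double-stranded RNA-binding protein, rose by 2.50 and Bicc1, a repressor of maternal mRNAs, by 2.39. Celf1 fell by 1.70, Fmr1 by 1.37 and Fxr2 by 1.26. In anti-SMARCA5 against IgG, 1 of 28 passed, near the 3.03% of all genes: Rbpms2 rose by 0.95 (adjusted p = 0.0334), from 284 ± 170 to 586 ± 458 CPM. With the replicate block 5 rose and 4 fell, where 25.8% of all genes passed.

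Of mRNAs listed as stored and then translated on maturation, 7 of 12 rose and 2 fell in the maternal deletion, with a median of 1.25. Among all genes 30.3% rose and 26.4% fell, with a median of 0.18. Plat, tissue plasminogen activator, rose from 8.70 ± 11.3 to 695 ± 899 CPM (SD), by 6.08 on the log2 scale (edgeR adjusted p = 2.5e-10). Gdf9, which is also on the list of oocyte markers, rose by 5.82 and Mos, the meiotic kinase, by 3.75. Tpx2, a spindle factor, fell by 2.14 and Ccnb1, cyclin B1, by 0.90. In anti-SMARCA5 against IgG, Tpx2 was the only 1 of 11 that passed, where 3.03% of all genes did. It fell by 0.86 (edgeR adjusted p = 0.0435), and with the replicate block 2 of the 11 rose and 1 fell. None of 18 poly(A) factors and none of 13 genes of the cap-binding and initiation list passed there. With the replicate block 2 rose and 1 fell of the former and 3 fell of the latter, where 25.8% of all genes passed.

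Of the marker lists, that of oocyte genes mostly rose in the maternal deletion and that of genome activation fell in part. Of 12 oocyte and maternal genes, such as those of the zona pellucida, 11 rose (median 2.21), where 30.3% of all genes rose. Their summed level had a median of 10740 CPM (624 to 32340) against 1131 CPM (290.1 to 4282) in wild type. Gdf9 makes up much of that sum, with a median of 4669 CPM in maternal deletion and 40.4 CPM in wild type. Of 8 tested genes of 2-cell genome activation, 0 rose and 5 fell (median -1.603), where 26.4% of all genes fell. With the replicate block 0 rose and 4 fell, where 57.6% of all genes passed in either direction. The 10 genes of that list summed to a median of 326 CPM (1.56 to 2027) in maternal deletion and 669 CPM (194 to 1600) in wild type, so the groups overlapped. No marker of cumulus cells, granulosa cells or sperm passed the filter on low counts in this comparison. The 12 markers of cumulus and granulosa cells summed to a median of 24.7 CPM (0 to 91.4) in maternal deletion and 0.155 CPM (0 to 43.6) in wild type. Inha and Ptx3 were at 0 in every maternal deletion library and Foxl2, Inha, Inhba and Cyp11a1 in every wild-type library. The 5 sperm markers summed to medians of 2.65 and 0 CPM (highest 36.1 and 3.45), with Tnp1 at 0 in both groups. The part of these RNAs, and of the lower depth of wild-type libraries, in the changes of the storage genes was not tested. With libraries of at least 500000 counts, 6 of 10 storage genes were called higher: Zar1 (5.51), Lsm14b (3.01), Ybx2, Eif4e1b, Cpeb1 and Patl2, but not Dazl. Of all 9734 genes tested there, 41.3% were called in either direction and 2153 genes as higher. Patl2, with 0 to 3 counts in wild-type libraries, entered that fit through the deletion libraries, so its call supports nothing here.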

How the data were processed

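The authors deposited read counts per gene as whole numbers that had not been normalized, in 2 tables for 138 libraries. Per the submitters' processing notes, Trim Galore 0.6.5, cutadapt 2.3 and HISAT2 2.1.0 were used with GRCm38. The handling of strand, duplicate reads and reads that match several places is not given in the sources used here. Odd counts outnumbered even ones in kept libraries (134662 table cells held 1, 30228 held 2), so counting error computed from single reads can be too small.

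Lines with the same gene identifier were summed. Libraries under 100000 counts were left out (19 of 135 embryos), among them every IgG library of replicate 2. Counts were compared in R 4.3.3 with edgeR 4.0.16 (TMM, filterByExpr, robust quasi-likelihood F test) over all genes, on the libraries of the groups compared. An adjusted p under 0.05 was called, and the standard error was the log2 fold change divided by the root of F. The fits were also run on simulated data, with the outcome not reported here. CPM used TMM factors over all kept libraries. DESeq2 1.42.0, scaling by total counts, no filter, other depth minimums, a replicate block and leaving out replicates or wells were the alternatives, and the block with total counts was added after the data had been seen.

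A replicate number names a pool of embryos in the labels, and in the deletion experiment also a sequencing lane. Same-numbered group means deviated together with a correlation over genes of 0.48 for the deletion, 0.57 for anti-SMARCA5 and IgG, 0.09 for anti-SMARCA5 and uninjected and 0.41 for IgG and uninjected. All 10 storage genes are named in every comparison. Of each other list, up to 3 called genes with the largest rise and 3 with the largest fall are named for the deletion and for anti-SMARCA5 against IgG, besides Smarca5, Trim21 and Gdf9, and for likeness the 5 nearest genes with a mean of at least 10 CPM. The members and lists were chosen with earlier results of these data known. Of the genes on the lists, 1 name (Symplk) matched no gene.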

Additional observations from a re-analysis of the deposited data

Results flagged for a closer look

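Zar1 and Lsm14b changed by different amounts after maternal deletion and after antibody against SMARCA5. The difference between the effects, on the log2 scale, was 4.70 for Zar1 and 2.67 for Lsm14b (edgeR adjusted p = 1.08e-07 and 5.65e-08). Patl2 had a difference of 5.32, but it entered that fit through the maternal deletion libraries where it is high, and without replicate 1 the value was 3.56 (adjusted p = 0.187), so its call supports nothing here. The experiments differ in the time of the loss, the collection of embryos and the sequencing lanes, which cannot be told apart here.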

How the results depend on the processing

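Depth limits Zar1l and Patl2, which sat under the filter in most comparisons, and Zar1 in wild type. In the deletion, 3 of 7 storage genes were called without replicate 2 and 7 of 10 without replicate 1, where 43.8% and 39.9% of all genes were called. Patl2, which entered through the deletion libraries, was among the 7. Against IgG, DESeq2 and the use of all libraries with any count each called 2 of 8, where 9.56% and 6.56% of all genes were called. Total counts called 0 (0.613% of all genes) and the replicate block 4 (25.8%). Leaving out replicates gave 0 to 1, with 0% to 5.85% of all genes (no gene at all was called without replicate 1). Against uninjected, total counts called 0 of 9 (21.2% of all genes) and the replicate block with total counts 1 (Ddx6, lower, with 27.1% of all genes). Leaving out replicates gave 0 to 3, with up to 28.4% of all genes (without replicate 1, 1 of 10544 genes was called). Without the 3 wells, 1 of 8 differed between replicates of the deletion, as did 12.6% of all genes. The replicate block gave 6 of 8 in the deletion (57.6% of all genes) and 3 of 9 against uninjected (31.9%). It gave 0 of 9 for IgG against uninjected (0%) and 3 of 10 between effects (11.7%), Patl2 among them.

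Values changed direction only for genes not called in the main comparison. Ddx6 against IgG was 0.036 with all libraries and 0.053 to 0.28 without replicate 1 or 3 (-0.38 without replicate 2). Against uninjected, total counts gave -0.029 (Zar1), -0.16 (Lsm14b), -0.13 (Eif4enif1) and -0.48 (Ddx6), and with the replicate block too -0.13 (Zar1), -0.19 (Lsm14b) and -0.71 (Ddx6). Ddx6 there was -0.09 with DESeq2, -0.013 with no filter, -0.008 with all libraries, -0.058 with 500000 counts and -0.30 with the replicate block. Leaving out replicates gave -0.085 to 1.92 (Zar1), -0.045 to 0.66 (Eif4enif1) and -0.29 to 0.69 (Ddx6). For IgG against uninjected, total counts gave -0.18 (Eif4enif1) and -0.23 (Ddx6), all libraries 0.03 (Lsm14b) and -0.012 (Ddx6), and leaving out replicates -0.66 to 0.73 (Zar1), -0.023 to 0.30 (Eif4enif1), -0.17 to 0.83 (Eif4e1b) and -0.31 to 0.64 (Ddx6). Between effects, Eif4enif1 was -0.049 with the replicate block, and leaving out replicates gave -0.088 to 0.50 (Eif4enif1) and -0.10 to 0.59 (Cpeb1). Between replicates of the deletion, Zar1 was -0.997 without the 3 wells, and Ddx6 -0.01 with no filter and -0.20 with 500000 counts. Between replicates 1 and 3, Lsm14b was 0.047 with total counts and Dazl -0.067 with 500000 counts. The median of Eif4enif1 in uninjected libraries was 323 CPM with total counts. The cause of these moves was not tested.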
